A study of Mus musculus with 12 samples.

Results

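C-type lectin receptors are surface proteins that bind sugars or lipids on microbes and dying cells, and 9 of their genes were followed in mouse peritoneal macrophages: Mrc1, Clec10a, Mgl2, Clec7a, Clec4a2, Clec4d, Clec4e, Clec4n and Clec12a. They were taken by gene symbol from the 47729 gene rows of the count matrix, and all 9 were among the 15232 genes that passed the filter on low counts and were tested. RNA with poly(A) tails was sequenced from C57BL/6 mice in 4 groups of 3 libraries. IL4c SPARC and IL4c untreated macrophages came from mice injected 2 times with 5 ug of IL-4 complexed to 25 ug of IL-4 antibody, and cells were collected 2 days after the last injection. TG SPARC and TG untreated macrophages came from mice given 3% thioglycollate, a sterile irritant, 4 days before collection. All groups shared the isolation: peritoneal cells were plated at 3000000 a well, washed after 2 h to keep attached cells, and cultured for 24 h with 20 ug/ml SPARC, a secreted matricellular protein, or without it. The labels name no control protein for SPARC, no uninjected mice, and no sex or age, and attachment was the means of selecting macrophages.

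These receptors fall into several working groups. Mrc1, Clec10a and Mgl2 encode endocytic receptors for mannose or galactose sugars, and their genes are widely used as marks of macrophages exposed to IL-4. Clec7a (Dectin-1), Clec4n (Dectin-2), Clec4d (MCL) and Clec4e (Mincle) encode receptors that recognise fungal or mycobacterial cell walls and signal through the kinase Syk, the last 3 by way of the adaptor FcRγ, the product of Fcer1g. Clec4a2 (DCIR) and Clec12a (MICL) carry inhibitory cytoplasmic motifs that recruit phosphatases.

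SPARC-treated and untreated cells differed in several of these genes. Clec4e rose in both kinds of macrophage, 6.48-fold in IL4c cells and 5.81-fold in TG cells. Clec10a fell 8.88-fold in TG cells, and Clec7a fell 2.66-fold in IL4c cells. The first kept an adjusted p under 0.05 in all 12 fits that left out 1 library, and the second lost it in 9. In both injections, both genes were lower in every SPARC library than in the untreated library of the same replicate number. Mgl2 rose 5.28-fold with SPARC in IL4c cells, whereas in TG cells it was near the lower end of detection and all 3 SPARC libraries were below all 3 untreated ones. Without SPARC, Mgl2 was 28.3-fold higher in IL4c than in TG macrophages and Clec12a was 2.69-fold lower. This Mgl2 call held in all 12 fits that left out 1 library, and the Clec12a call was lost in 6. The Mgl2 rise in IL4c cells was also lost in 6, and the Clec4e rise in 4 for TG cells and 1 for IL4c cells.

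Library depth was 31501941 to 42288785 counts. The summed level of 6 macrophage markers was 8211 to 9337 CPM (counts scaled to a common library total) in IL4c SPARC, 7305 to 9082 in IL4c untreated, 6785 to 7432 in TG SPARC and 5001 to 6742 in TG untreated libraries. Each marker was present in every library, at 5.84 CPM or more, but they did not move together. Without SPARC, Adgre1 and Itgam were higher in IL4c than in TG cells (log2 fold changes 1.24 and 1.57) and Fcgr1 was lower (−4.06). In IL4c cells Fcgr1 rose by 4.26 with SPARC and Mertk fell by 1.61. The replicate 1 libraries of TG stood apart: a list of 8 B cell markers summed to 1709 CPM in TG SPARC 1 and 2148 CPM in TG untreated 1, against at most 117 CPM in the other TG SPARC and 170 CPM in the other TG untreated libraries. The labels do not say whether the libraries of a group came from different mice, and the p-values refer only to the variation among these libraries. These are bulk samples, in which fewer cells of a type and less RNA per cell cannot be told apart.

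The genes lie in a few clusters, which bear on how their reads are counted. On GRCm38, Mgl2 (chr11:70130329-70137550) and Clec10a (chr11:70156197-70170834) are neighbours on the + strand, 18.6 kb apart. Chromosome 6 holds Clec4a2 (chr6:123106428-123143999, +), Clec4n (chr6:123229843-123247021, +), Clec4d (chr6:123262111-123275265, +) and Clec4e (chr6:123281789-123289870, − strand), the last pair with their 3′ ends 6.52 kb apart. Clec12a (chr6:129342691-129365303, +) and Clec7a (chr6:129461591-129472779, −) are 96.3 kb apart, and Mrc1 stands alone at chr2:14229392-14332057 on the + strand. Of the 50-base words in the annotated transcripts, 16.5% of those of Mgl2 and 10.6% of those of Clec10a also occur in another gene, 242 of them shared between this pair, and 8.19% of those of Clec4a2 occur elsewhere, chiefly in Clec4a4 and Clec4b1. The counts of Mgl2, Clec10a and Clec4a2 are therefore uncertain, since the authors' counting could split reads between copies. For Clec4n the share was 0.932%, and for the other 5 genes it was 0. Mrc1 overlaps Mir511 and Clec4a2 overlaps Gm44132, each on the same strand.

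Promoters are shown for the neighbouring pair that was higher in every SPARC library than in the untreated libraries of the same injection (Clec4e and Clec4d), for Mgl2, whose direction differed between the injections, and for Clec7a, which fell in IL4c cells. RefSeq windows on GRCm38.p6 run from 250 bases before to 50 bases after the RefSeq gene start, 5′ to 3′ on the gene's strand, so that the start is base 251. The windows are chr6:123289822-123290121 (− strand) for Clec4e, chr6:123261857-123262156 (+) for Clec4d, chr11:70130107-70130406 (+) for Mgl2 and chr6:129472730-129473029 (−) for Clec7a. Capitals mark matches, on either strand, to the motifs named after the sequences.
Clec4e: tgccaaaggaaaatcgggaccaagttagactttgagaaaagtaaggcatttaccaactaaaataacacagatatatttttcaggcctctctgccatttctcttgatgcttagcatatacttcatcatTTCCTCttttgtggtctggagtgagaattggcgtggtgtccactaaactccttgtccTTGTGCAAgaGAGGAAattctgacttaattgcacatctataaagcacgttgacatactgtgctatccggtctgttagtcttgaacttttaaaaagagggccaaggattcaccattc
Clec4d: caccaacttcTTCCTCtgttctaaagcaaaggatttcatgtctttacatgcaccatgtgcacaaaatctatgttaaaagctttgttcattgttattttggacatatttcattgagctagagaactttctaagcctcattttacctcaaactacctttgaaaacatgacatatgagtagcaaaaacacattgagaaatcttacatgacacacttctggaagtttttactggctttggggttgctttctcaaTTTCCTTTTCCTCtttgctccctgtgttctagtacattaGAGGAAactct
Mgl2: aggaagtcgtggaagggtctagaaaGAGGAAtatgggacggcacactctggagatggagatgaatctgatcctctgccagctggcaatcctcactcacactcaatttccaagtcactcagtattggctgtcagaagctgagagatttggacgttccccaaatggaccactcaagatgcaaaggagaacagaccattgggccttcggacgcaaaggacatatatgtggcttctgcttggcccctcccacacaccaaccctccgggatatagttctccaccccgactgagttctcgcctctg
Clec7a: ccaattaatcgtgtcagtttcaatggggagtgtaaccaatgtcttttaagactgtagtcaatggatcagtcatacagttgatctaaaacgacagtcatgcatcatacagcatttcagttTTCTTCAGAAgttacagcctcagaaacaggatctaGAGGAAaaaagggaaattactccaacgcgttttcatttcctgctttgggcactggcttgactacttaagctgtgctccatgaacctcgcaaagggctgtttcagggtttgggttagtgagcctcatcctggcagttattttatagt

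Windows were found for 7 of the 9 genes, Clec10a and Clec4n being the others. Those of Clec4a2 (chr6:123122440-123122739) and Clec12a (chr6:129349994-129350293) lie inside the gene bounds given above, downstream of the starts printed there. The PU.1 site GAGGAA, bound by a factor that specifies myeloid cells, was present in 6 of the 7 windows, against 28.3% of all 32851 promoter windows. A C/EBP site TTGCNNAA lay in the windows of Clec4e, 66 bases before the start, and Clec12a, against 10.8% of all. A STAT6-type site TTCNNNNGAA, the form bound by the factor that IL-4 activates, lay in the Clec7a window (6.95% of all). The Clec4d window held the interferon response element core GAAANNGAAA (3.44%), overlapping one of its PU.1 matches, and the Clec4a2 window held a gamma-activated site TTCNNNGAA (8.3%). An AP-1 site TGANTCA was in the Clec4a2 and Clec12a windows (7.81%), and the NF-kB letters GGGANTTTCC were in none (0.411%). These matches describe letters in the windows, and binding was not measured.

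**Figure D1:**
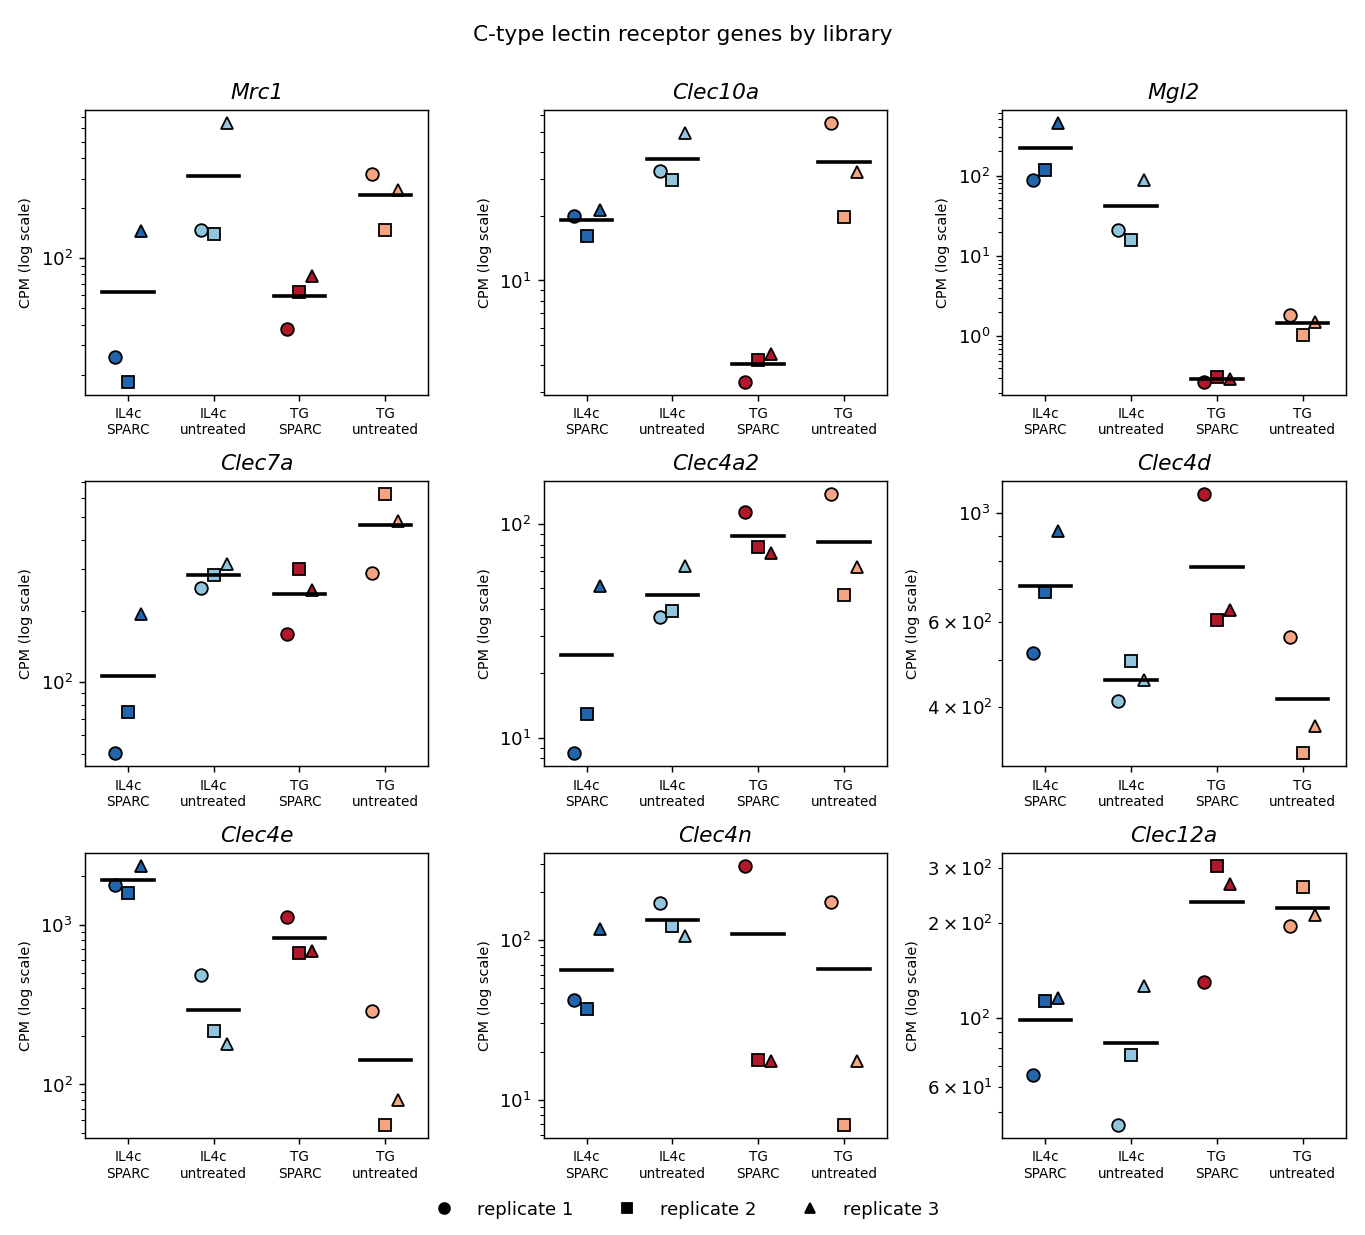
Level of each receptor gene in every library, in TMM-scaled CPM on a log scale. Symbols are replicates and horizontal lines are group means; Clec4e is higher in every SPARC library than in every untreated library of the same injection, and Mgl2 is higher in every IL4c than in every TG library.

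SPARC against untreated was tested across all genes with edgeR's quasi-likelihood test, and a gene was called at a Benjamini-Hochberg adjusted p under 0.05. In IL4c macrophages 2 of the 9 receptors were called higher and 1 lower, against 15.1% and 12.7% of all tested genes. In TG macrophages 1 was called higher and 1 lower, against 6.73% and 4.52% of all tested genes. The median log2 fold change of the 9 was −0.93 in IL4c cells, against −0.0014 over all genes, and 0.07 in TG cells, against −0.03. Libraries with the same replicate number within an injection deviated together, and with the replicate number as a block the calls were 3 higher and 4 lower of 9 in IL4c cells (22.8% and 22.4% of all genes) and 2 higher and 4 lower in TG cells (14.3% and 13.1%). DESeq2 called 2 of the 9 higher and 3 lower in each injection, against 17.4% and 15.7% of the genes it tested in IL4c cells and 10% and 7.4% in TG cells, adding Mrc1 in both, Clec10a in IL4c cells and Mgl2 and Clec4d in TG cells.

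Clec4e, the Mincle gene, had the highest mean CPM of the 9 in both SPARC groups. Its level was 1777, 1565 and 2332 CPM in IL4c SPARC libraries, against 483, 215 and 178 CPM in IL4c untreated libraries. In TG cells it was 1114, 661 and 686 CPM with SPARC, against 288, 56.0 and 80.3 CPM without. The groups did not overlap in either injection, and replicate 1 had the smallest ratio in both, 3.68 in IL4c and 3.87 in TG, against 7.29 to 13.1 in the other IL4c pairs and 8.54 to 11.8 in the other TG pairs. The fitted log2 fold change was 2.70 ± 0.62 (SE, adjusted p = 0.0107) in IL4c cells and 2.54 ± 0.62 (adjusted p = 0.0285) in TG cells. The IL4c call was lost without IL4c untreated 2 (adjusted p = 0.0517) and without both IL4c replicate 3 libraries (adjusted p = 0.0768). The TG call was lost without TG SPARC 1, TG SPARC 3, TG untreated 2 or TG untreated 3 (adjusted p = 0.0614, 0.0514, 0.0625 and 0.0980), with the log2 fold change between 2.20 and 3.58 (without TG untreated 1) over all 12 fits that left out 1 library, and also when the TG groups were fitted alone (adjusted p = 0.111). A list of 10 neutrophil markers, a cell type that also expresses Clec4e, summed to 26.9 to 41.4 CPM in IL4c SPARC and 6.96 to 9.85 CPM in IL4c untreated libraries. In TG it summed to 28.0 to 53.2 CPM with SPARC and 7.12 to 11.7 CPM without. S100a8 made up most of these sums, at up to 51.6 CPM, and rose with SPARC by 2.07 on the log2 scale in both injections (adjusted p = 9.65e-04 in IL4c and 0.00354 in TG cells). Camp, a neutrophil granule gene, reached at most 2.10 CPM, with log2 fold changes of 4.42 in IL4c (adjusted p = 0.0103) and 3.46 in TG cells (adjusted p = 0.0579), while S100a9 never passed 3 counts and Ly6g, a defining neutrophil marker, never passed 1. The part of these cells in the Clec4e values was not tested.

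Clec4d, whose product MCL pairs with Mincle, was already abundant and moved in the same direction by less. IL4c SPARC libraries had 517, 690 and 922 CPM, against 413, 498 and 454 CPM in IL4c untreated libraries. TG SPARC libraries had 1095, 603 and 635 CPM, against 557, 322 and 366 CPM in TG untreated libraries. All SPARC libraries lay above the untreated ones of their injection. The log2 fold changes were 0.64 ± 0.30 (adjusted p = 0.136) in IL4c and 0.91 ± 0.30 (adjusted p = 0.0806) in TG cells, which did not pass, and within replicate pairs both passed (adjusted p = 0.00920 and 0.00353 with the block). Leaving out TG untreated 1 alone gave a log2 fold change of 1.17 in TG cells (adjusted p = 0.0300). In a value scaled by gene length (FPKM), the ratio of Clec4e to Clec4d was 1.78, 1.16 and 1.39 in IL4c SPARC, against 0.617, 0.221 and 0.206 in IL4c untreated libraries. It was 0.574, 0.623 and 0.596 in TG SPARC, against 0.276, 0.0968 and 0.116 in TG untreated libraries. Thus the FPKM of Clec4e exceeded that of Clec4d in the IL4c SPARC libraries and was below it in the other 9. This order depends on the scaling by gene length. In CPM, Clec4e was also above Clec4d in every TG SPARC library and in IL4c untreated 1 (483 against 413 CPM).

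**Figure D2:**
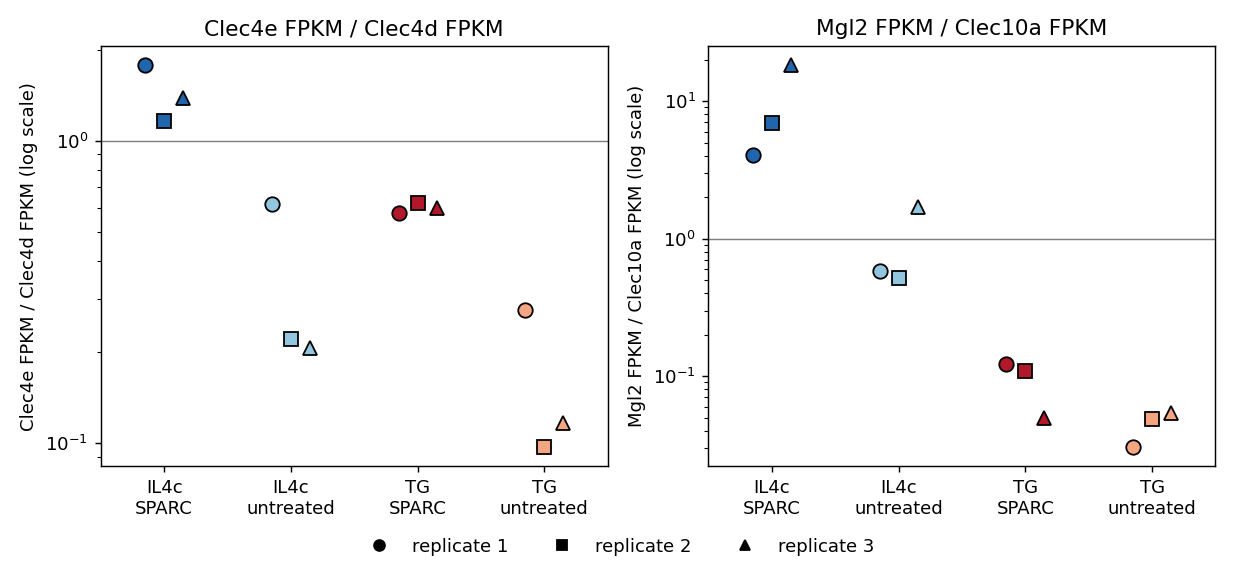
FPKM ratio of Clec4e to Clec4d (left) and of Mgl2 to Clec10a (right) in every library, on log axes; symbols are replicates and the grey line marks a ratio of 1. Both ratios are above 1 in all 3 IL4c SPARC libraries, and the Clec4e ratio is higher in every SPARC library than in every untreated library of the same injection.

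Clec4n, the Dectin-2 gene, varied widely between libraries of 1 group. It stood at 41.9, 37.1 and 117 CPM in IL4c SPARC, against 169, 122 and 106 CPM in IL4c untreated libraries. In TG SPARC libraries it stood at 291, 17.6 and 17.4 CPM, against 173, 6.96 and 17.5 CPM in TG untreated libraries. The groups overlapped in both injections, the paired ratios of SPARC to untreated in IL4c cells were 0.248, 0.304 and 1.10, and the 2 TG libraries with high Clec4n were those with the high B cell marker sums given above, whose part in this was not tested. No change was called, at −1.02 ± 1.27 in IL4c (adjusted p = 0.597) and 0.72 ± 1.27 in TG cells (adjusted p = 0.779), and without TG SPARC 1 the TG value turned to −1.85 (adjusted p = 0.360).

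Clec7a, the β-glucan receptor gene, was lower with SPARC in all 6 replicate pairs. IL4c SPARC libraries had 50.2, 75.2 and 193 CPM, against 249, 285 and 315 CPM in IL4c untreated libraries, with no overlap. TG SPARC libraries had 160, 300 and 246 CPM, against 289, 623 and 478 CPM in TG untreated libraries, where TG SPARC 2 lay just above TG untreated 1. It fell by 1.41 ± 0.47 on the log2 scale in IL4c cells (adjusted p = 0.0486), a call made by a narrow margin. That call was lost in 9 of the 12 fits that left out 1 library (adjusted p from 0.0595 to 0.153) and stayed only without TG SPARC 1, TG untreated 1 or IL4c SPARC 3, although the log2 fold change stayed between −2.16 (without IL4c SPARC 3) and −1.07. It was also lost with no filter on low counts and with the IL4c groups fitted alone (adjusted p = 0.0983 and 0.0682). In TG cells the value was −0.98 ± 0.47 (adjusted p = 0.216), which passed with the replicate block (adjusted p = 0.0468), where the 3 paired ratios were 0.554, 0.482 and 0.514. In IL4c cells the paired ratios were more spread, at 0.202, 0.264 and 0.614.

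Among the endocytic receptors, Clec10a (MGL1, a galactose-type receptor) had the decrease with the smallest adjusted p. TG SPARC libraries had 3.35, 4.25 and 4.50 CPM, against 55.1, 19.9 and 32.5 CPM in TG untreated libraries. IL4c SPARC libraries had 20.1, 16.2 and 21.3 CPM, against 32.7, 29.5 and 49.3 CPM in IL4c untreated libraries. The groups were separate in both injections. Clec10a fell by 3.15 ± 0.36 on the log2 scale in TG cells (adjusted p = 0.00119), and this call held in all 12 fits that left out 1 library. In IL4c cells the value was −0.95 ± 0.33 (adjusted p = 0.0557), which passed with the replicate block (adjusted p = 0.0393), without TG untreated 1 (adjusted p = 0.0155) and without TG untreated 2 (adjusted p = 0.0227). It also passed with the IL4c groups fitted alone (adjusted p = 0.0179) and without both TG replicate 1 libraries (adjusted p = 0.0120). A filter of 5 CPM in 3 libraries gave an adjusted p of 0.0469.

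Mgl2 (MGL2, the close relative encoded next to Clec10a) rose in IL4c cells. IL4c SPARC libraries had 88.2, 118 and 455 CPM, against 21.1, 16.0 and 88.1 CPM in IL4c untreated libraries. TG SPARC libraries had 0.274, 0.316 and 0.294 CPM, against 1.86, 1.04 and 1.50 CPM in TG untreated libraries. The replicate 3 libraries were highest in both IL4c groups, and IL4c SPARC 1 passed IL4c untreated 3 only slightly, but the paired ratios of 4.18, 7.40 and 5.17 were close to each other. Mgl2 rose by 2.40 ± 0.74 on the log2 scale in IL4c cells (adjusted p = 0.0357, and 9.30e-05 with the replicate block). The call was lost without TG SPARC 2, TG SPARC 3, TG untreated 3, IL4c SPARC 3, IL4c untreated 1 or IL4c untreated 2 (adjusted p = 0.0516, 0.0526, 0.0507, 0.159, 0.115 and 0.116), and the log2 fold change was 1.32 without IL4c SPARC 3 and 3.57 without IL4c untreated 3. It was also lost with no filter on low counts and with the IL4c groups fitted alone (adjusted p = 0.0777 and 0.0854). In TG cells it stood at −2.30 ± 1.03 (adjusted p = 0.188), which passed with the block (adjusted p = 0.00293), on 9.35, 10.8 and 9.53 expected counts in the SPARC libraries. It also passed there with the TG groups fitted alone (adjusted p = 0.0348) and without both IL4c replicate 3 libraries (adjusted p = 0.00441). A list of 8 dendritic cell markers, a cell type that also expresses Mgl2, summed to 261 to 385 CPM in IL4c SPARC and 76.4 to 125 CPM in IL4c untreated libraries. In TG it summed to 79.9 to 240 CPM with SPARC and 63.3 to 122 CPM without. Cd24a, also found on other cells, reached 372 CPM and made up most of these sums, while Xcr1 and Siglech, which define dendritic cell types, never passed 6 and 4 counts. In IL4c cells Cd24a rose by 1.84 on the log2 scale with SPARC (adjusted p = 0.00456). The other tested markers, Flt3, Zbtb46, Ccr7 and Dpp4, were not called there, at −0.06, −0.93, 0.70 and −0.18 (adjusted p = 0.973, 0.139, 0.558 and 0.906). The part of dendritic cells in the Mgl2 values was not tested.

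The FPKM ratio of Mgl2 to Clec10a summarises this divergence. It was 4.05, 6.88 and 18.3 in IL4c SPARC, against 0.578, 0.513 and 1.70 in IL4c untreated libraries. In TG cells Mgl2 was the minor partner throughout, at 0.123, 0.108 and 0.0495 of the Clec10a level with SPARC, against 0.0304, 0.0491 and 0.0542 without. Because the pair shares transcript sequence, the low Mgl2 counts of TG cells could include reads of Clec10a. Likewise the Clec10a counts of IL4c SPARC cells, and with them its smaller decrease there, could include reads of Mgl2. Neither was tested.

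Mrc1, the mannose receptor gene, was lower with SPARC in all 6 pairs but varied widely between libraries. IL4c SPARC libraries had 25.7, 18.2 and 145 CPM, against 148, 139 and 649 CPM in IL4c untreated libraries. TG SPARC libraries had 37.5, 63.1 and 77.8 CPM, against 318, 148 and 255 CPM in TG untreated libraries. Only the TG groups were free of overlap, since IL4c SPARC 3 reached the level of the lower IL4c untreated libraries. The log2 fold changes of −2.31 ± 0.86 in IL4c (adjusted p = 0.0708) and −2.02 ± 0.85 in TG cells (adjusted p = 0.161) did not pass without the block and passed with it (adjusted p = 0.00215 and 0.00974). Leaving out IL4c SPARC 3 alone gave −3.82 in IL4c cells (adjusted p = 0.0111), and leaving out IL4c untreated 3 alone gave −1.19 (adjusted p = 0.308).

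The inhibitory receptors gave no call for SPARC. Clec4a2 had 8.47, 13.0 and 51.5 CPM in IL4c SPARC, against 36.9, 39.0 and 63.5 CPM in IL4c untreated libraries, and 114, 77.7 and 72.8 CPM in TG SPARC, against 138, 46.5 and 62.8 CPM in TG untreated libraries. The groups overlapped in both injections. In IL4c cells its value of −0.93 ± 0.63 (adjusted p = 0.309) passed with the block (adjusted p = 0.0278) and became −2.10 without IL4c SPARC 3 (adjusted p = 0.0158) and −0.52 without IL4c SPARC 1 (adjusted p = 0.587). In TG cells it was 0.10 ± 0.62 (adjusted p = 0.949). Clec12a had 65.7, 113 and 116 CPM in IL4c SPARC, against 45.6, 76.3 and 126 CPM in IL4c untreated libraries, and 129, 305 and 266 CPM in TG SPARC, against 196, 260 and 213 CPM in TG untreated libraries. Its groups also overlapped, with log2 fold changes of 0.25 ± 0.40 in IL4c (adjusted p = 0.688) and 0.07 ± 0.40 in TG cells (adjusted p = 0.944).

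**Figure D3:**
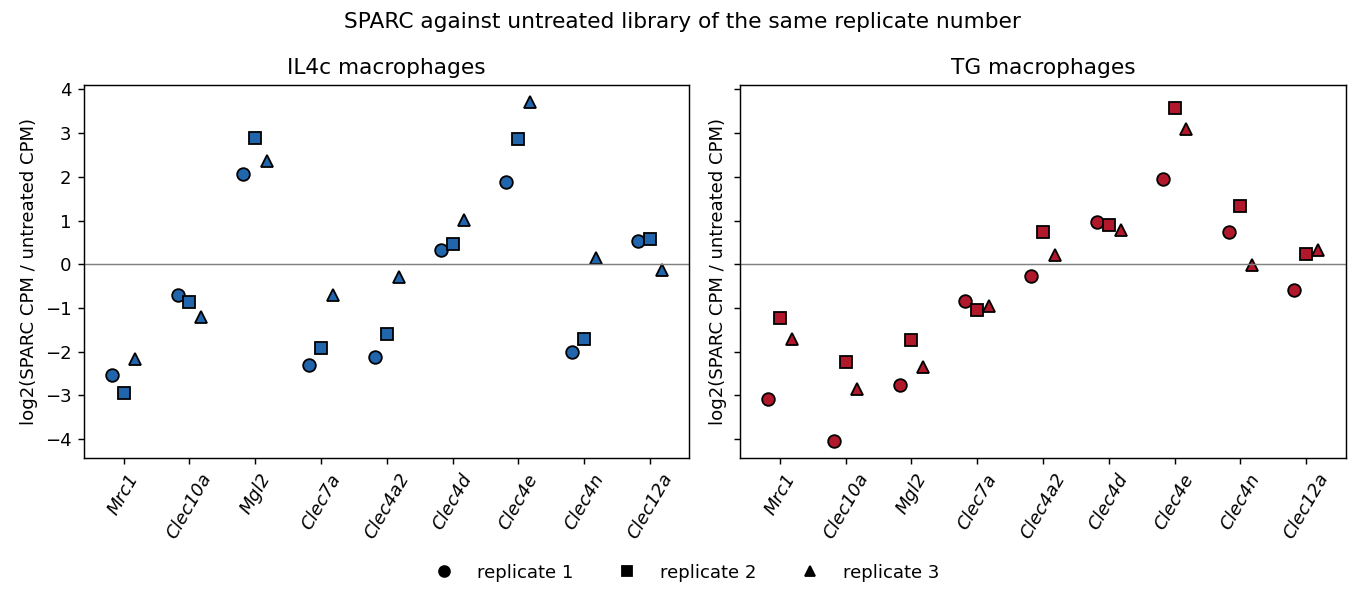
Ratio of SPARC to untreated CPM within each replicate number, on a log2 axis, for IL4c macrophages (left) and TG macrophages (right). Points above the grey line are higher with SPARC; Mgl2 lies above it in all 3 IL4c pairs and below it in all 3 TG pairs, and Mrc1, Clec10a and Clec7a lie below it in all 6.

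Whether the SPARC response differed between the injections was tested as the difference of the 2 log2 fold changes, IL4c minus TG. With edgeR, 0 genes passed in either direction (0% of tested genes), members included, whereas 1612 genes and 2 of the receptors had an unadjusted p under 0.05. DESeq2 called 2 receptors higher, against 1.34% of genes higher and 1.51% lower, and edgeR with the replicate block called 1 higher, against 1.5% and 1.6%. The 2 receptors were Mgl2 and Clec10a. For Mgl2 the difference was 4.71 ± 1.25 on the log2 scale, with an adjusted p of 0.230 without the block and 0.00588 with it. For Clec10a, whose decrease was smaller in IL4c cells, it was 2.20 ± 0.47, with an adjusted p of 0.169 and 0.0586 with the block. The other 7 differences had adjusted p of 0.778 to 0.982 and included −0.30 ± 1.16 for Mrc1, −0.44 ± 0.65 for Clec7a, −0.26 ± 0.42 for Clec4d and 0.16 ± 0.83 for Clec4e. The median difference of the 9 was −0.26, against 0.02 over all genes.

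The second question was how macrophages of IL4c mice differed from those of TG mice. Without SPARC 1 of the 9 receptors was higher in IL4c cells and 1 lower, against 10.2% and 10.8% of tested genes (11.7% and 12.6% with the replicate block, which also called 1 and 1). With SPARC 2 were higher and 0 lower, against 10.9% and 10.1%, and with the replicate block 3 were higher and 3 lower, against 12.8% and 12.4%. Between injections, here and below, the block joins TG and IL4c libraries of the same replicate number. Neither the labels nor the correlations across injections give that pairing, so block results between injections are not a paired test. Mgl2 was higher in every IL4c than in every TG library. Its log2 fold change was 4.82 ± 0.86 in untreated cells (adjusted p = 0.00565) and 9.53 ± 1.09 with SPARC (adjusted p = 6.58e-04), on the low TG counts given above. Both calls held in all 12 fits that left out 1 library, with 3.66 to 5.22 in untreated cells (3.66 without IL4c untreated 3) and 8.46 to 9.92 with SPARC (8.46 without IL4c SPARC 3). Clec10a did not differ detectably in untreated cells, at 0.05 ± 0.33 (adjusted p = 0.926), and was higher by 2.25 ± 0.35 in IL4c cells with SPARC (adjusted p = 0.00234). Mrc1 averaged 62.9 ± 71.0 CPM in IL4c SPARC and 59.5 ± 20.4 CPM in TG SPARC libraries, and 312 ± 292 CPM in IL4c untreated and 241 ± 85.8 CPM in TG untreated libraries (SD, n = 3 each). Its log2 fold changes between injections were 0.08 ± 0.82 with SPARC and 0.38 ± 0.82 without (adjusted p = 0.956 and 0.776), and the sign with SPARC turned without IL4c SPARC 3 (−1.43) or TG SPARC 1 (−0.18), and the sign without SPARC turned without IL4c untreated 3 (−0.74).

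Clec12a was the receptor gene called lower in IL4c cells. Untreated IL4c libraries reached at most 126 CPM, against at least 196 CPM in untreated TG libraries. The log2 fold change was −1.43 ± 0.41 without SPARC (adjusted p = 0.0338). It was no longer called without TG SPARC 3, TG untreated 2, TG untreated 3, IL4c SPARC 3, IL4c untreated 1 or IL4c untreated 2 (adjusted p = 0.0583, 0.121, 0.0825, 0.0528, 0.105 and 0.113), with no filter on low counts (adjusted p = 0.0749) or with the untreated groups fitted alone (adjusted p = 0.0656). With SPARC it was −1.25 ± 0.41 (adjusted p = 0.0534), which passed with the block (adjusted p = 0.00957), without TG SPARC 1 (adjusted p = 0.0205) and without IL4c untreated 1 or 3 (adjusted p = 0.0406 and 0.0382). Among SPARC libraries Clec4a2 and Clec7a stood at −1.86 ± 0.65 (adjusted p = 0.0672) and −1.15 ± 0.47 (adjusted p = 0.108), and passed with the block (adjusted p = 0.0491 and 0.0336) and without IL4c SPARC 3 (adjusted p = 0.00533 and 0.0141). Clec4a2 also passed there without TG untreated 1 (adjusted p = 0.0445).

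Clec4e was not called between the injections. With SPARC the IL4c libraries lay above the TG libraries, and the log2 fold change of 1.20 ± 0.59 (adjusted p = 0.172) passed with the block (adjusted p = 0.0495) and without TG untreated 1 (adjusted p = 0.0406). It also passed with the SPARC groups fitted alone (adjusted p = 0.0333) and without both TG replicate 1 libraries (adjusted p = 0.0253). Without SPARC the groups overlapped, at 1.05 ± 0.59 (adjusted p = 0.234), and leaving out TG untreated 1 gave 2.11 (adjusted p = 0.00951). Clec4d was at −0.13 ± 0.30 with SPARC and 0.13 ± 0.30 without (adjusted p = 0.784 for each). Clec4n was at −0.74 ± 1.27 and 1.00 ± 1.27 (adjusted p = 0.719 and 0.611). With both TG replicate 1 libraries left out, Clec4n was higher in IL4c cells by 1.88 with SPARC and 3.44 without (adjusted p = 0.0331 and 0.00333).

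**Figure D4:**
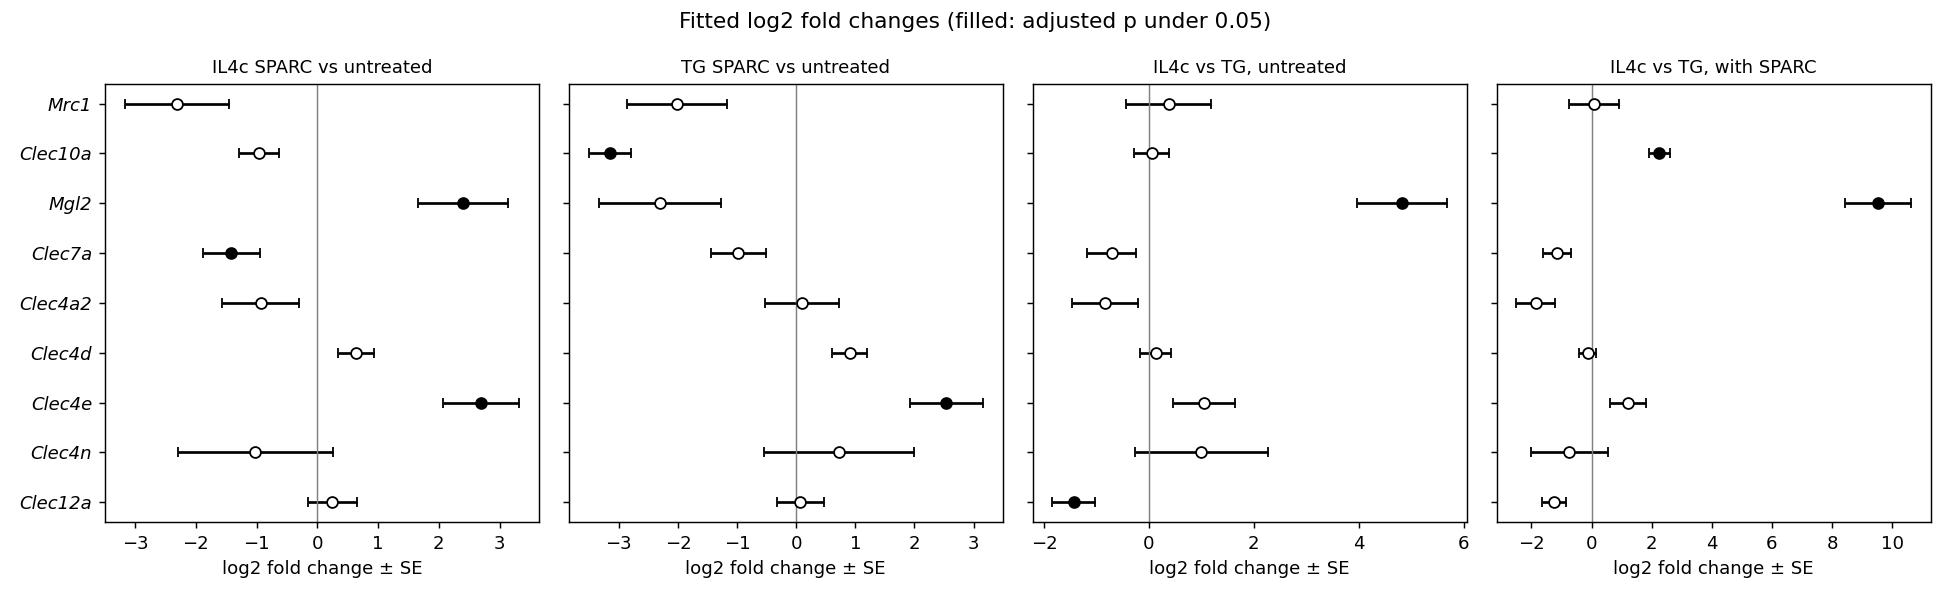
Fitted log2 fold changes with their standard errors from edgeR, for SPARC over untreated in IL4c and in TG macrophages and for IL4c over TG without and with SPARC; filled points have an adjusted p under 0.05. Clec4e is filled in both SPARC panels and Mgl2 in both IL4c panels at the right, whose axes differ in range.

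Set against each other per unit of gene length, the receptor transcripts changed in make-up. Clec4d led in untreated cells of both injections, with a mean of 475 FPKM in IL4c and 469 FPKM in TG cells. In IL4c SPARC cells Clec4e led at 1033 ± 258 FPKM, ahead of Clec4d at 733 ± 209 FPKM (SD, n = 3), although their ranges overlapped. In TG SPARC cells Clec4d at 821 ± 292 FPKM preceded Clec4e at 486 ± 154 FPKM, again with overlap. Clec4e made up 49.5 ± 6.45% of the summed FPKM of the 9 genes in IL4c SPARC libraries, against 14.4 ± 8.33% in IL4c untreated libraries. In TG cells its share was 27.2 ± 0.661% with SPARC, against 6.44 ± 4.25% without. Clec7a took 2.47 ± 0.974% in IL4c SPARC, against 14.0 ± 1.20% in IL4c untreated libraries, and 8.30 ± 3.91% in TG SPARC, against 25.1 ± 12.6% in TG untreated libraries. The order at the low end also differed: Mrc1 was lowest at 11.9 ± 13.4 FPKM in IL4c SPARC cells, and Mgl2 was lowest in both TG groups, at 0.267 ± 0.0709 FPKM with SPARC and 1.11 ± 0.362 FPKM without. Between these ends most neighbours in the order overlapped. In TG SPARC cells Clec12a, Clec7a, Clec4n and Clec4a2 formed one such run (136 to 90.2 FPKM), and in IL4c SPARC cells Mgl2 to Mrc1, the third to the ninth, formed another.

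**Figure D5:**
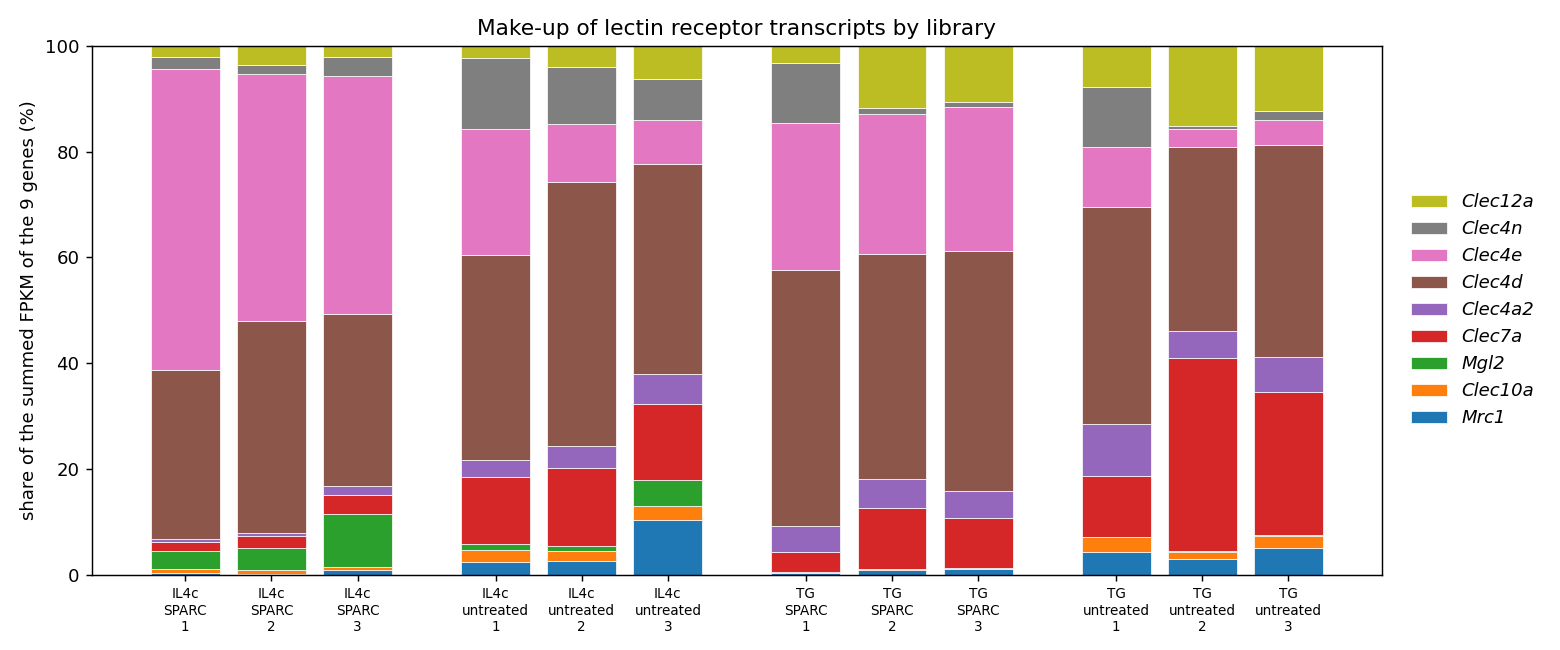
Share of each receptor in the summed FPKM of the 9 genes, in percent, for each library; bars are libraries and colours are genes. Clec4e takes 45.0 to 56.9% in IL4c SPARC libraries and 8.20 to 23.8% in IL4c untreated libraries.

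Across the 12 libraries some receptors varied together, which includes the difference between the 4 groups. Clec4e and Clec4d had r = 0.80 and Mrc1 and Clec7a r = 0.75 on log2 CPM, while Clec7a and Clec4e had r = −0.83. Of 8599 other genes that averaged 10 CPM or more, the closest to Clec4e were Spred2 (r = 0.982), C1rl (0.975) and Zfp609 (0.965). Among those closest to Clec7a were Kpna4 (0.970) and Cd36 (0.962). Those closest to Mrc1 were Tfrc (0.949), Tspyl2 (0.936) and Acss1 (0.935), and those closest to Clec10a were Coa4 (0.926), Gnpda1 (0.909) and Nr1d2 (0.900).

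The wider family was read from a list of 36 other C-type lectin genes, of which 27 were tested. With SPARC 6 rose and 6 fell in IL4c cells, against 15.1% and 12.7% of all tested genes, and 4 rose and 4 fell in TG cells, against 6.73% and 4.52%, with median log2 fold changes of −0.43 and −0.53, against −0.0014 and −0.03 over all genes. With the replicate block 6 rose and 10 fell in IL4c cells (22.8% and 22.4% of all tested genes) and 6 rose and 7 fell in TG cells (14.3% and 13.1%). Further fits left out 1 library, both TG replicate 1 libraries or both IL4c replicate 3 libraries. In these, 2 to 6 rose and 4 to 9 fell in IL4c cells, and 0 to 6 rose and 2 to 5 fell in TG cells. Of all tested genes these fits called 1407 to 3362 higher and 1100 to 3145 lower in IL4c cells. In TG cells they called 475 to 1343 higher and 262 to 917 lower. In IL4c cells Ly75, the endocytic receptor DEC-205, averaged 142 ± 19.2 CPM with SPARC and 32.8 ± 9.88 CPM without, and rose by 2.12 ± 0.36 on the log2 scale (adjusted p = 0.00230). Thbd, thrombomodulin, fell to 59.2 ± 18.2 CPM, against 192 ± 29.4 CPM, a log2 fold change of −1.70 ± 0.25 (adjusted p = 0.00116), and in TG cells by 1.32 ± 0.25 (adjusted p = 0.0108). Cd209a, a relative of DC-SIGN, was at 0.255 ± 0.0753 CPM in IL4c SPARC and 19.2 ± 12.3 CPM in IL4c untreated libraries, a log2 fold change of −6.21 ± 0.98 (adjusted p = 0.00166). In TG cells it was at most 0.0287 CPM with SPARC and 0.521 to 4.20 CPM without (adjusted p = 0.0125). Cd209e was at most 0.0264 CPM in IL4c SPARC and 0.849 ± 0.237 CPM in IL4c untreated libraries (adjusted p = 0.00162). In TG cells Clec4b1 fell by 2.99 ± 0.50 (adjusted p = 0.00609), at 0.327 ± 0.134 CPM with SPARC and 2.61 ± 0.690 CPM without, and Cd302 rose by 1.16 ± 0.24 (adjusted p = 0.0151).

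Between the injections, 5 of the 27 were higher and 2 lower in IL4c cells without SPARC, against 10.2% and 10.8% of all tested genes, and 4 were higher and 3 lower with it, against 10.9% and 10.1%, with medians of 0.10 and 0.37, against −0.05 and −0.03 over all genes. With the block these counts were 8 and 2 without SPARC (11.7% and 12.6% of all tested genes) and 5 and 5 with it (12.8% and 12.4%). Leaving out 1 library, both TG replicate 1 or both IL4c replicate 3 libraries gave 4 to 11 and 2 to 4 without SPARC. With SPARC these omissions gave 2 to 8 and 1 to 7. Of all tested genes they called 853 to 2953 higher and 523 to 3049 lower without SPARC. The ranges with SPARC were 1035 to 2731 and 665 to 2856. Cd209d averaged 1.28 ± 0.361 CPM in IL4c SPARC libraries and had 0 counts in TG SPARC libraries (adjusted p = 0.00166), and without SPARC it was at 0.927 ± 0.407 CPM in IL4c and 0.0341 ± 0.0404 CPM in TG cells (adjusted p = 0.00584). Cd209e was at 0.849 ± 0.237 CPM in IL4c untreated and at most 0.0236 CPM in TG untreated libraries (adjusted p = 0.00288). Clec4g was at 0.547 ± 0.164 CPM in IL4c SPARC and 0 counts in TG SPARC libraries (adjusted p = 0.00956). Thbd was higher by 1.41 ± 0.25 without SPARC (adjusted p = 0.00561) and by 1.03 ± 0.25 with it (adjusted p = 0.0167). Cd72, an inhibitory receptor known from B cells, was lower in IL4c cells by −2.46 ± 0.40 and −1.74 ± 0.39 on the log2 scale (adjusted p = 0.00393 and 0.0117). For the difference of the SPARC responses none of the 27 passed, and Clec9a had the smallest p (−2.02 ± 0.74, adjusted p = 0.362).

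Signalling partners of these receptors were read from a list of 25 genes, 24 of them tested. In IL4c cells 5 rose and 4 fell with SPARC, against 15.1% and 12.7% of all tested genes, and in TG cells 5 rose and 0 fell, against 6.73% and 4.52%, with median log2 fold changes of −0.15 and −0.09, against −0.0014 and −0.03 over all genes. With the block 7 rose and 9 fell in IL4c cells (22.8% and 22.4% of all tested genes) and 7 rose and 5 fell in TG cells (14.3% and 13.1%). Leaving out 1 library, both TG replicate 1 or both IL4c replicate 3 libraries gave 5 to 6 and 2 to 9 in IL4c cells. In TG cells these omissions gave 3 to 6 and 0 to 2. Of all tested genes they called 1407 to 3362 higher and 1100 to 3145 lower in IL4c cells. The ranges in TG cells were 475 to 1343 and 262 to 917. Fcer1g, the adaptor of Mincle, MCL and Dectin-2, averaged 592 ± 7.19 CPM in IL4c SPARC and 358 ± 21.0 CPM in IL4c untreated libraries, a rise of 0.73 ± 0.09 on the log2 scale (adjusted p = 4.18e-04). It averaged 745 ± 12.5 CPM in TG SPARC and 373 ± 19.5 CPM in TG untreated libraries, a rise of 1.00 ± 0.09 (adjusted p = 3.41e-04). The kinase gene Src rose by 2.98 ± 0.40 in IL4c cells (adjusted p = 7.75e-04) and by 2.18 ± 0.39 in TG cells (adjusted p = 0.00854). Malt1, of the Card9 complex that passes the signal to NF-kB, rose by 1.05 ± 0.17 in IL4c cells (adjusted p = 0.00184), and Vav1, an exchange factor downstream of Syk, by 0.47 ± 0.12 in TG cells (adjusted p = 0.0343). The 4 that fell in IL4c cells, named after their values were seen, were Syk at −0.46 ± 0.10, the adaptor gene Tyrobp at −0.94 ± 0.19, the exchange factor gene Vav3 at −1.02 ± 0.20 and the phosphatase gene Inpp5d at −0.50 ± 0.17 (adjusted p = 0.00733, 0.00583, 0.00473 and 0.0472).

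Between the injections, 1 of the 24 partners was higher and 5 were lower in IL4c cells without SPARC, against 10.2% and 10.8% of all tested genes, and 0 were higher and 7 lower with it, against 10.9% and 10.1%, with medians of −0.17 and −0.27, against −0.05 and −0.03 over all genes. The block gave 1 higher and 4 lower without SPARC (11.7% and 12.6% of all tested genes), and 0 higher and 9 lower with it (12.8% and 12.4%). Leaving out 1 library, both TG replicate 1 or both IL4c replicate 3 libraries gave 0 to 2 higher and 1 to 5 lower without SPARC. With SPARC these omissions gave 0 to 1 higher and 1 to 10 lower. Of all tested genes they called 853 to 2953 higher and 523 to 3049 lower without SPARC. The ranges with SPARC were 1035 to 2731 and 665 to 2856. Without SPARC, Nfatc2 and Malt1 were lower by −1.36 ± 0.37 and −0.61 ± 0.17 (adjusted p = 0.0284 and 0.0313), and Card9 was higher by 0.53 ± 0.15 (adjusted p = 0.0336). With SPARC, Ptpn6, the phosphatase recruited by inhibitory lectins, averaged 133 ± 23.3 CPM in IL4c and 250 ± 15.8 CPM in TG cells, a log2 fold change of −0.91 ± 0.17 (adjusted p = 0.00556). Nfatc2, Syk and Fcer1g stood at −1.56 ± 0.38, −0.41 ± 0.10 and −0.33 ± 0.09 (adjusted p = 0.0167, 0.0175 and 0.0257). For the difference of the SPARC responses none passed.

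Among 12 genes for factors of the IL-4, interferon and myeloid programmes, 2 rose and 1 fell with SPARC in IL4c cells, against 15.1% and 12.7% of all tested genes, and 2 rose and 0 fell in TG cells, against 6.73% and 4.52%, with median log2 fold changes of −0.04 and 0.11, against −0.0014 and −0.03 over all genes. With the block 3 rose and 4 fell in IL4c cells (22.8% and 22.4% of all tested genes) and 4 rose and 2 fell in TG cells (14.3% and 13.1%). Leaving out 1 library, both TG replicate 1 or both IL4c replicate 3 libraries gave 2 and 1 to 4 in IL4c cells. In TG cells these omissions gave 1 to 3 and 0 to 1. Of all tested genes they called 1407 to 3362 higher and 1100 to 3145 lower in IL4c cells. The ranges in TG cells were 475 to 1343 and 262 to 917. Cebpb averaged 541 ± 59.0 CPM in IL4c SPARC and 249 ± 40.0 CPM in IL4c untreated libraries and rose by 1.12 ± 0.19 on the log2 scale (adjusted p = 0.00199), and by 1.30 ± 0.19 in TG cells (adjusted p = 0.00354). Irf8 fell by 1.38 ± 0.26 in IL4c cells (adjusted p = 0.00389). Between the injections 4 were higher and 1 lower in IL4c cells without SPARC, against 10.2% and 10.8% of all tested genes, and 2 were higher and 1 lower with it, against 10.9% and 10.1%, with medians of 0.04 and 0.05, against −0.05 and −0.03 over all genes. With the block 3 were higher and 1 lower without SPARC (11.7% and 12.6% of all tested genes), and 3 higher and 2 lower with it (12.8% and 12.4%). The same omissions gave 2 to 5 higher and 0 to 2 lower without SPARC, and 1 to 4 higher and 1 to 2 lower with it. Of all tested genes they called 853 to 2953 higher and 523 to 3049 lower without SPARC. The ranges with SPARC were 1035 to 2731 and 665 to 2856. Klf4, induced by IL-4 in macrophages, was higher by 2.89 ± 0.38 without SPARC and 2.06 ± 0.37 with it (adjusted p = 0.00180 and 0.00491), and Tfec by 1.56 ± 0.31 and 0.98 ± 0.30 (adjusted p = 0.00804 and 0.0449). Without SPARC, Cebpb was higher by 0.75 ± 0.18 (adjusted p = 0.0189). With SPARC, Irf8 averaged 50.9 ± 13.0 CPM in IL4c and 228 ± 81.4 CPM in TG cells, a log2 fold change of −2.16 ± 0.26 (adjusted p = 9.03e-04). None passed for the difference of the SPARC responses, where Irf8 had the smallest p (−1.62 ± 0.36, adjusted p = 0.173) and 1 of the 12 passed with the block.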

How the data were processed

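The authors deposited 2 matrices with a column per library: expected counts per gene, unscaled, and FPKM, already divided by the authors by gene length and depth. The tools, per the submitters' processing notes, include STAR and RSEM, with CASAVA and bcl2fastq 1.8.4. The build, the annotation and the strand setting of the counting were not given in the sources used here. Non-whole values made up 7.97% of the expected counts, which were rounded and fitted with edgeR 4.0.16 in R 4.3.3 (glmQLFit robust, glmQLFTest, TMM scaling, filterByExpr with a minimum count of 10) over 12 libraries in 4 groups of 3, with 8 residual degrees of freedom and a common biological coefficient of variation of 0.308. P-values were adjusted by Benjamini-Hochberg over all 15232 genes, with a threshold of 0.05. CPM uses TMM-scaled library sizes. The script was tested on simulated data.

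Members and lists were chosen with earlier results of these data known. All 9 members are named. In each list and comparison up to 4 called genes with the smallest p are named, or 1 where none was called, and for 4 members the 3 genes with the highest Pearson r on log2 CPM (prior count 2). Some genes that this rule selects are not reported here. Gene positions come from GENCODE on GRCm38, where all 9 identifiers matched with their version, and promoter windows from RefSeq.

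Within an injection, deviations from the group mean of same-numbered libraries correlated in all 6 pairs (r = 0.342 to 0.735), against −0.659 to 0.507 for libraries of different number. The numbers were therefore taken to pair SPARC with untreated libraries there, which the labels do not state. Among TG replicates 2 and 3, same-numbered libraries had r = 0.599 and 0.533, close to 0.507 and 0.448 for different numbers. Among IL4c replicates 1 and 2 these were 0.412 and 0.342, against 0.19 and 0.158. The pairing was thus inferred from these same data, and the block results rest on it. Across injections r was −0.178 to 0.25 for same-numbered libraries, which gives no such pairing. The block for IL4c against TG nevertheless used the replicate number across both injections. Replicates differed beyond counting noise (smallest chi-square per degree of freedom 10.6). Depth was 31501941 to 42288785 counts. The alternatives tried were DESeq2 1.42.0, scaling by RLE or by total counts, other filters, limma 3.58.1 on log2(FPKM + 1) and log2(FPKM + 0.1), the replicate block, the compared groups alone, and libraries left out.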

Additional observations from a re-analysis of the deposited data

Results flagged for a closer look

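Mgl2 was singled out because its SPARC response ran in opposite directions in the 2 injections. All 3 IL4c pairs were higher with SPARC, with SPARC to untreated ratios of 4.18, 7.40 and 5.17, and all 3 TG pairs were lower, at 0.147, 0.303 and 0.196. The difference of the log2 fold changes, IL4c minus TG, was 4.71 ± 1.25, with an adjusted p of 0.230 in edgeR's quasi-likelihood test, 0.00588 with the replicate block and 7.52e-04 in DESeq2. The TG SPARC libraries held 9.35, 10.8 and 9.53 expected counts of Mgl2, and 16.5% of its 50-base words occur in other genes.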

How the results depend on the processing

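Of the 9 receptors, 3 were called in IL4c cells with SPARC against untreated. The count was 5 with DESeq2, 1 with no filter on low counts, 7 with the replicate block and 5 with both TG replicate 1 libraries left out. Over all genes these fits called, in that order, 2628 higher and 2372 lower, 1972 and 1517, 3474 and 3406, and 3362 and 3145. The main fit called 2301 and 1936. In TG cells 2 were called, against 5 with DESeq2, 6 with the block and 4 with both IL4c replicate 3 libraries left out, an omission chosen after seeing the data. Calls over all genes were then 1514 higher and 1118 lower, 2175 and 1990, and 1099 and 548, against 1025 and 689 in the main fit. For IL4c against TG without SPARC 2 were called, against 1 with no filter, 1 when the compared groups were fitted alone and 4 without both TG replicate 1 libraries. Calls over all genes were then 1367 higher and 922 lower, 1034 and 597, and 2953 and 3049, against 1548 and 1649 in the main fit. With SPARC 2 were called, against 5 with DESeq2 and with each filtered log2(FPKM + 1) and log2(FPKM + 0.1) fit, 6 with the block, 6 without both TG replicate 1 libraries and 5 without both IL4c replicate 3 libraries. All-gene calls for DESeq2 and the 2 FPKM fits were 2238 higher and 1951 lower, 1193 and 1542, and 1140 and 1567. For the block and the 2 omissions they were 1951 and 1890, 2731 and 2856, and 1574 and 1242. The main fit called 1664 and 1532. For the difference of the SPARC responses 0 were called, against 2 with DESeq2, 1 with the block and 1 without both IL4c replicate 3 libraries. Calls over all genes were then 171 higher and 193 lower, 228 and 244, and 1 and 0, against 0 and 0 in the main fit. A fit of the compared groups alone does not exist for this difference. Leaving out 1 library gave 0 to 4 calls in IL4c cells, 1 to 3 in TG cells, 1 to 3 for IL4c against TG without SPARC and 2 to 4 with it. Over all genes it gave 1407 to 2789 higher and 1100 to 2389 lower in IL4c cells. In TG cells it gave 475 to 1279 and 262 to 816. For IL4c against TG it gave 853 to 2316 and 523 to 2246 without SPARC, and 1035 to 2236 and 665 to 2057 with it. The causes were not tested.
Signs turned only for receptors that were not called, and total counts and FPKM also moved the median gene. Relative to that gene the sign did not turn for Clec12a in TG cells (0.10 with total counts, 0.014 on log2(FPKM + 0.1)) or, for IL4c against TG without SPARC, for Clec10a (0.09 with total counts) and Mrc1 (0.08 on log2(FPKM + 0.1)). Clec12a in TG cells was −0.0010 with total-count scaling, −0.059 and −0.060 on log2(FPKM + 1) and log2(FPKM + 0.1), −0.013 with the replicate block and −0.16 to 0.39 with 1 library left out. The same omissions gave −0.15 to 0.68 for Clec4a2 and −1.85 to 3.11 for Clec4n in TG cells, and −0.044 to 0.69 for Clec12a in IL4c cells. For IL4c against TG without SPARC, Mrc1 was −0.073 and −0.079 on the FPKM scales, −0.087 with the block, −0.71 without both IL4c replicate 3 libraries and −0.74 to 0.73 with 1 library left out. Clec10a was −0.076 with total-count scaling, −0.17 without both IL4c replicate 3 libraries and −0.20 to 0.51 with 1 left out. With SPARC, Mrc1 was −0.43 and −0.52 on the FPKM scales, −0.47 with the block, −0.18 without both TG replicate 1 libraries, −1.43 without both IL4c replicate 3 libraries (adjusted p = 0.0432) and −1.43 to 0.52 with 1 left out. Clec4d was 0.18 without both TG replicate 1 libraries and −0.33 to 0.19 with 1 left out. Clec4n was 0.26 and 0.28 on the FPKM scales, 0.70 with the block, 1.88 without both TG replicate 1 libraries and −1.39 to 1.88 with 1 left out. For the difference of the SPARC responses, Clec4e was −0.014 and −0.026 on the FPKM scales, −0.053 with the block, −0.63 and −0.30 without both TG replicate 1 or both IL4c replicate 3 libraries, and −0.89 to 0.73 with 1 left out. Clec12a was −0.046 without both TG replicate 1 libraries. With 1 left out it was −0.14 to 0.62, Mrc1 −1.84 to 0.82, Clec4d −0.52 to 0.023 and Clec4n −4.13 to 0.82.
Over all genes, scaling moved the split of calls: SPARC in TG cells gave 1025 higher and 689 lower, against 758 and 938 with total-count scaling and 745 and 821 on log2(FPKM + 1). IL4c against TG gave 1548 higher and 1649 lower without SPARC, against 920 and 2447 on log2(FPKM + 0.1) and 1154 and 2790 with total-count scaling, which also moved the median gene by −0.111. Relative to that median Mgl2 was 4.88 and Clec12a −1.37. The block changed no call of the 9 other than those given beside the results. Mgl2 in TG cells rests on about 10 counts per SPARC library, which limits the precision of its folds.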
